A study of Mus musculus with 26 samples.

Results

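Neural stem and progenitor cells that lacked SOX2 were compared with wild-type (WT) cells, both after the vehicle alone. The comparison used 13 of the 26 arrays of the series, which are all those labelled as vehicle: 6 from WT cultures, numbered 1 to 6, and 7 from SOX2 knockout (KO) cultures, numbered 7 to 13. Every gene with a symbol was included, which gave 19505 genes. All cultures came from the telencephalon of C57BL/6 mice at postnatal day 0, were grown with EGF and FGF-1 and, per the labels, were kept separate for each animal. After passage 3 they received ethanol, the solvent of dexamethasone (Dex, a synthetic glucocorticoid), for 4 h. The other 13 arrays came from the same cultures after 4 h of 100 nM Dex and are used here only where named. The knockout allele, the exon removed, any Cre driver and when SOX2 was lost are not given in the sources used here, and the labels give no sex for any array.

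SOX2 is a transcription factor with an HMG-box DNA-binding domain, and in the developing telencephalon it marks neural stem and progenitor cells. It usually binds DNA together with partner factors, and it belongs to the SOXB1 group with SOX1 and SOX3. In such cells it is known for maintaining self-renewal, and it also stays on in astrocytes, which share many genes with cultured neural stem cells.

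Expression is given in log2 units of the deposited values, so 1 unit is a 2-fold difference if the base is 2 as the values were taken to be. Array medians lay between 6.47 and 6.84 in WT and between 6.46 and 6.82 in SOX2 KO. Upper quartiles lay between 9.66 and 10.38 in WT and between 9.58 and 10.40 in SOX2 KO, so the arrays do not share 1 distribution but the genotypes cover the same range. The mean of each genotype was then subtracted from every gene, and the cultures were cut into 3 clusters, a number set in advance. The labels do not mention these clusters. Each held both genotypes (3 WT and 2 SOX2 KO, 1 WT and 2 SOX2 KO, and 2 WT and 3 SOX2 KO), but the genotype difference had been taken out first. So this does not show how the full profiles would group. Upper quartiles were 10.14 to 10.40 in cluster 1 (cultures 1, 2, 3, 7 and 8), 9.58 to 9.78 in cluster 2 and 9.69 to 9.79 in cluster 3. Cluster 1 thus also stood apart in the scale of its arrays. Y-linked transcripts (Eif2s3y, Kdm5d and Uty) were high in 3 WT cultures and in 2 SOX2 KO cultures. Of the 26 measured markers of neural stem and progenitor cells, 14 lay above the upper quartile of every array, and the mean level of the 26 markers ran from 11.75 to 12.21 in WT and from 11.77 to 12.19 in SOX2 KO.

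Both arrays of WT culture 4 went against their labels. In the library of culture 4 labelled vehicle, the mean of 24 glucocorticoid-induced genes was 10.83, against 9.11 to 9.70 in the other 12 arrays labelled vehicle. Its Fam107a level was 12.51, against 4.45 to 5.62 in the others. In the array labelled Dex of that culture the mean was 9.21, against 10.36 to 11.19 in the other arrays labelled Dex, and Fam107a was 5.68, against 8.93 to 11.29. Dex minus vehicle was thus -1.62 in the mean of these genes in culture 4 and 1.25 to 1.70 in the other 12 cultures. The values run as if the labels of these arrays were exchanged, which was not tested, and the labels were kept. Where leaving out culture 4 changes the call of a gene described here, the value without it is given.

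Sox2 itself was measured first as a check of the labels. Its level was 12.67 to 14.39 (median 13.22) in WT and 3.95 to 5.48 (median 4.51) in SOX2 KO, so the lowest WT culture was above the highest SOX2 KO culture by 7.19 log2 units. The difference, SOX2 KO minus WT, was -8.75 ± 0.30 (moderated SE; adjusted p = 6.13e-13, limma with Benjamini-Hochberg adjustment over all genes). In SOX2 KO the level lay between percentiles 6.00 and 33.1 of the genes on the same array, and it was not shown to be above background, so no fold is given. Where the probes lie relative to the deleted sequence is not given in the sources used here. Of the 18 measured genes of the Sox family, Sox2 was the only one past the adjusted p threshold of 0.05, used for every call here. Sox1 (-0.34 ± 0.19) and Sox3 (0.36 ± 0.39), the other SOXB1 genes, did not pass, and nor did Sox21 (-0.40 ± 0.24) or Sox9 (-0.26 ± 0.28), a gliogenic factor gene. Sox3 ranged from 7.16 to 9.17 (median 8.23) in WT and from 7.45 to 9.48 (median 8.19) in SOX2 KO, and the groups overlapped over most of that range.

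Besides Sox2, the genes lower in SOX2 KO included Fndc3c1, Lpo, 3 genes of glutamate and GABA handling (Slc25a18, Slc1a2 and Slc6a11), the potassium channel genes Kcnj16 and Kcna2 and the vesicle gene Rab3b. The genes higher in SOX2 KO included the chloride channel gene Clic5, the transcription factor genes Runx1 and Lef1, the granule gene Scg2 and the bHLH inhibitor gene Id2. In limma, 112 of 19505 genes passed, which is 0.574% of the genes tested. Of these, 29 were higher in SOX2 KO (0.149%) and 83 lower (0.426%), and 1189 genes had an unadjusted p under 0.05. Over all genes the median difference was -0.03 and 55.2% of differences were below 0. The smallest difference past the threshold was 0.86 in size, and 20 genes differed by more than 2 log2 units, 17 of them lower and 3 higher.

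For 73 of the 112 genes, every SOX2 KO culture lay outside the range of the WT cultures. These were 22 of the 29 higher and 51 of the 83 lower genes. Over all genes the same separation was seen for 31 genes in the higher direction (0.159%) and 70 in the lower direction (0.359%). Without culture 4 the count was 116, with 28 higher and 88 lower, and 97 of the 112 genes were among them.

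**Figure D1:**
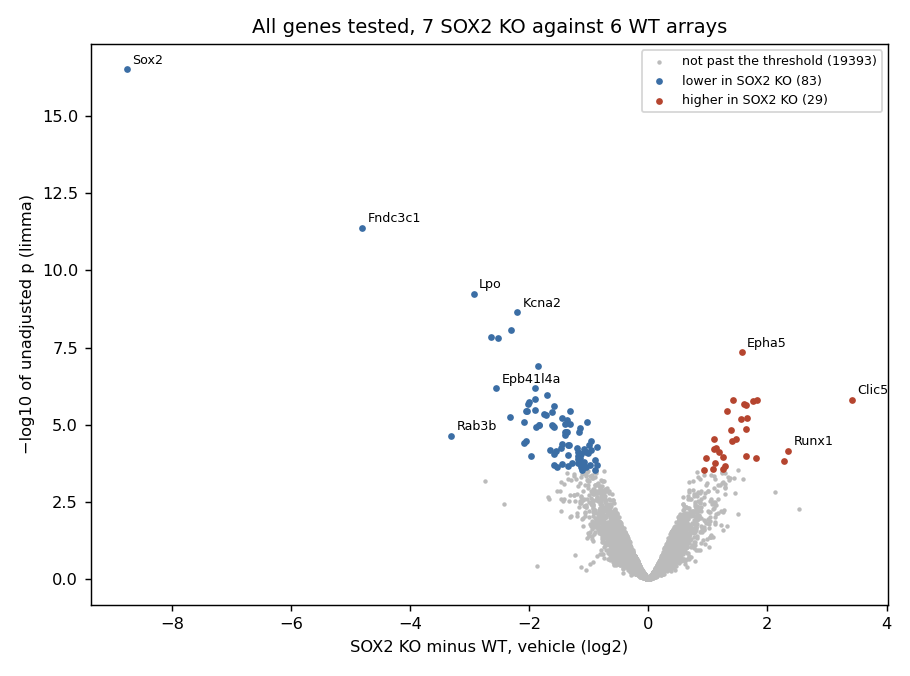
Each point is 1 of the 19505 genes, with SOX2 KO minus WT in log2 units on the horizontal axis and −log10 of the unadjusted limma p on the vertical axis. The 83 genes past the threshold and lower (blue) extend to Sox2 at -8.75, and the 29 higher genes (red) extend to Clic5 at 3.42.

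The promoters of the 3 largest falls and the 3 largest rises that the RefSeq promoter table holds are shown here because the comparison turns on these genes. The lines give the 250 bases before the annotated start on build GRCm38.p6, and capitals mark ACAAAG, a core of the letters that SOX factors bind. The places are chr3:34649745-34649994 (plus strand) for Sox2, chrX:106485230-106485479 (minus) for Fndc3c1, chr4:108878820-108879069 (plus) for Rab3b, chr17:44188322-44188571 (plus) for Clic5, chr16:92826075-92826324 (minus) for Runx1 and chr1:79440027-79440276 (minus) for Scg2.
Sox2: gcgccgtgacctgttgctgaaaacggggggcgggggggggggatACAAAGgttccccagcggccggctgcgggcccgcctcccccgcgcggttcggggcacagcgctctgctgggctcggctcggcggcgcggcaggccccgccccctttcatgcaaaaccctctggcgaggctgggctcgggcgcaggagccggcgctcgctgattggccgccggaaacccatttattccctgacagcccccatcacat
Fndc3c1: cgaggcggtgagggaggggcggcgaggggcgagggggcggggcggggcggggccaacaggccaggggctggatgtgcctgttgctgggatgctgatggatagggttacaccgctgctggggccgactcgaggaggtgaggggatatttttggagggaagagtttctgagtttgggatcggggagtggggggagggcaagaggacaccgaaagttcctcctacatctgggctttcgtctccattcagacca
Rab3b: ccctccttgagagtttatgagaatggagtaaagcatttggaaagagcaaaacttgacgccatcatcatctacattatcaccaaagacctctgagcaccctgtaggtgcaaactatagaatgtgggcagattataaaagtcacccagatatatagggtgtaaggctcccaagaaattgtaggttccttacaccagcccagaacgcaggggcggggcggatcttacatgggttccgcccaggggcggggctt
Clic5: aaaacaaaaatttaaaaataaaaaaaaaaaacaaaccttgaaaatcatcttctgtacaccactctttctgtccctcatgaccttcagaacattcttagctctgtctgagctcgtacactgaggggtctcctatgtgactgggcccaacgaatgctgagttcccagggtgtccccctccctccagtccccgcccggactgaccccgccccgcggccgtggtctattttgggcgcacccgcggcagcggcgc
Runx1: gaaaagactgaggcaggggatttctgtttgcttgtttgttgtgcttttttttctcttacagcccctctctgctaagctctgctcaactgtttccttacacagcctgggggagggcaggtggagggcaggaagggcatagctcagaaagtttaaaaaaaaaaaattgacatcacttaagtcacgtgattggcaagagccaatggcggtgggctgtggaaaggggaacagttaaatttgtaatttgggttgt
Scg2: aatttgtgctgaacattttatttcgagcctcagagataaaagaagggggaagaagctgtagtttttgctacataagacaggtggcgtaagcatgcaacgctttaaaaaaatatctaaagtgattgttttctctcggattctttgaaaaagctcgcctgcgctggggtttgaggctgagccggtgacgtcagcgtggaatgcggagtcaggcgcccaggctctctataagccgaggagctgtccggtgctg

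The cores ACAAAG and ACAATG were searched on both strands and were found in 1 of these 6 windows, that of Sox2, 206 bases before the start. One of them was present in 22.0% of the 19143 promoters of tested genes, in 16.3% of the 98 promoters of lower genes and in 15.6% of the 32 promoters of higher genes. The longer words AACAATG and AACAAAG, searched on both strands in the window from 250 bases before to 50 bases after the start, were present in 7.80% of the promoters of tested genes and in none of these 6. They were present in 8 of the 98 promoters of lower genes (8.16%) and in 1 of the 32 of higher genes (3.12%). Promoters were found for 93 of the 112 genes, and a gene can have several. A match describes the letters only. The promoters of lower genes with such a word include those of Rtn1, a reticulon gene of the endoplasmic reticulum with 3 matches, Gstm7, a glutathione transferase gene, Syt1, a vesicle calcium sensor gene, and Sorbs2, an actin adaptor gene. The third match of Rtn1 begins 4 bases before the start, runs across it and is not printed. The matches of these 4 genes that lie wholly before the start, in capitals with 12 bases on either side, lie at chr12:72235908-72235938 and chr12:72235873-72235903 (both minus) for Rtn1, chr3:107931830-107931860 (minus) for Gstm7, chr10:109009169-109009199 (minus) for Syt1 and chr8:45661814-45661844 (plus) for Sorbs2.
Rtn1: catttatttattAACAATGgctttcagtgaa
Rtn1: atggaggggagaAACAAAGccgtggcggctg
Gstm7: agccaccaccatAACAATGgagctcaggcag
Syt1: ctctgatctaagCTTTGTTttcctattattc
Sorbs2: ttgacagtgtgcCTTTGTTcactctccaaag

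The largest falls after Sox2 were in genes of several kinds. Fndc3c1, a gene on the X chromosome that encodes a protein with fibronectin type III domains, was 10.56 to 12.22 (median 11.27) in WT and 5.47 to 7.47 (median 6.59) in SOX2 KO. It fell 27.9-fold (-4.80 ± 0.31, adjusted p = 4.12e-08, limma), and the groups were 3.09 log2 units apart at their nearest. Lpo, which encodes lactoperoxidase, was 8.80 to 10.19 (median 9.48) in WT and 5.58 to 7.12 (median 6.65) in SOX2 KO, again with no overlap, and fell 7.63-fold (-2.93 ± 0.25, adjusted p = 3.68e-06, limma). Rab3b, a small GTPase gene of regulated vesicle release, differed more between cultures. Its level was 11.80 to 14.16 (median 13.33) in WT. In SOX2 KO it was between 8.01 and 8.91 in cultures 9 to 12 but 11.03 in culture 7, 10.95 in culture 13 and 12.31 in culture 8, the last above the 2 lowest WT cultures. The fall was -3.31 ± 0.59 (adjusted p = 0.00810, limma).

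Epb41l4a, which encodes a FERM-domain protein of the band 4.1 family, was 13.51 to 15.47 (median 14.43) in WT and 10.45 to 12.65 (median 12.04) in SOX2 KO and fell by 2.56 (± 0.35 SE). Lix1 was 6.83 to 7.62 (median 7.23) in WT and 4.46 to 5.77 (median 4.73) in SOX2 KO, without overlap (-2.30 ± 0.24, adjusted p = 3.39e-05, limma). Cd93, a transmembrane glycoprotein gene best known from endothelial and myeloid cells, was 5.15 to 8.68 (median 6.68) in WT and 4.08 to 5.36 (median 4.91) in SOX2 KO (-2.08 ± 0.39). Its WT range was wide, with 8.68 in culture 6 and 5.15 in culture 2, and the groups overlapped. The mean level of 11 endothelial markers was 4.96 to 5.31 in WT and 5.04 to 5.24 in SOX2 KO, and that of 15 microglial markers 4.90 to 5.22 and 4.71 to 5.15. None of these markers passed, and their part in the fall of Cd93 was not tested.

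Of 7 measured genes of the progestin and adipoQ receptor family, Paqr8 (-2.31 ± 0.37) and Paqr7 (-2.05 ± 0.32), which encode membrane progestin receptors, fell and none rose. The family was chosen after its values were seen, so the count is not a result about it (0.426% of all genes fell). Paqr8 was 11.06 to 14.26 (median 12.80) in WT and 9.69 to 11.41 (median 10.22) in SOX2 KO. Its groups overlapped only because WT culture 6 was at 11.06, below culture 7 of SOX2 KO at 11.41. Paqr7 was 7.08 to 9.24 (median 8.79) in WT and 5.83 to 7.04 (median 6.56) in SOX2 KO, without overlap. Zcchc12, a zinc finger gene, Nwd1 and Frrs1l, an AMPA receptor accessory protein gene, differed by -1.71, -1.91 and -1.84 and passed, each without overlap between the groups.

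**Figure D2:**
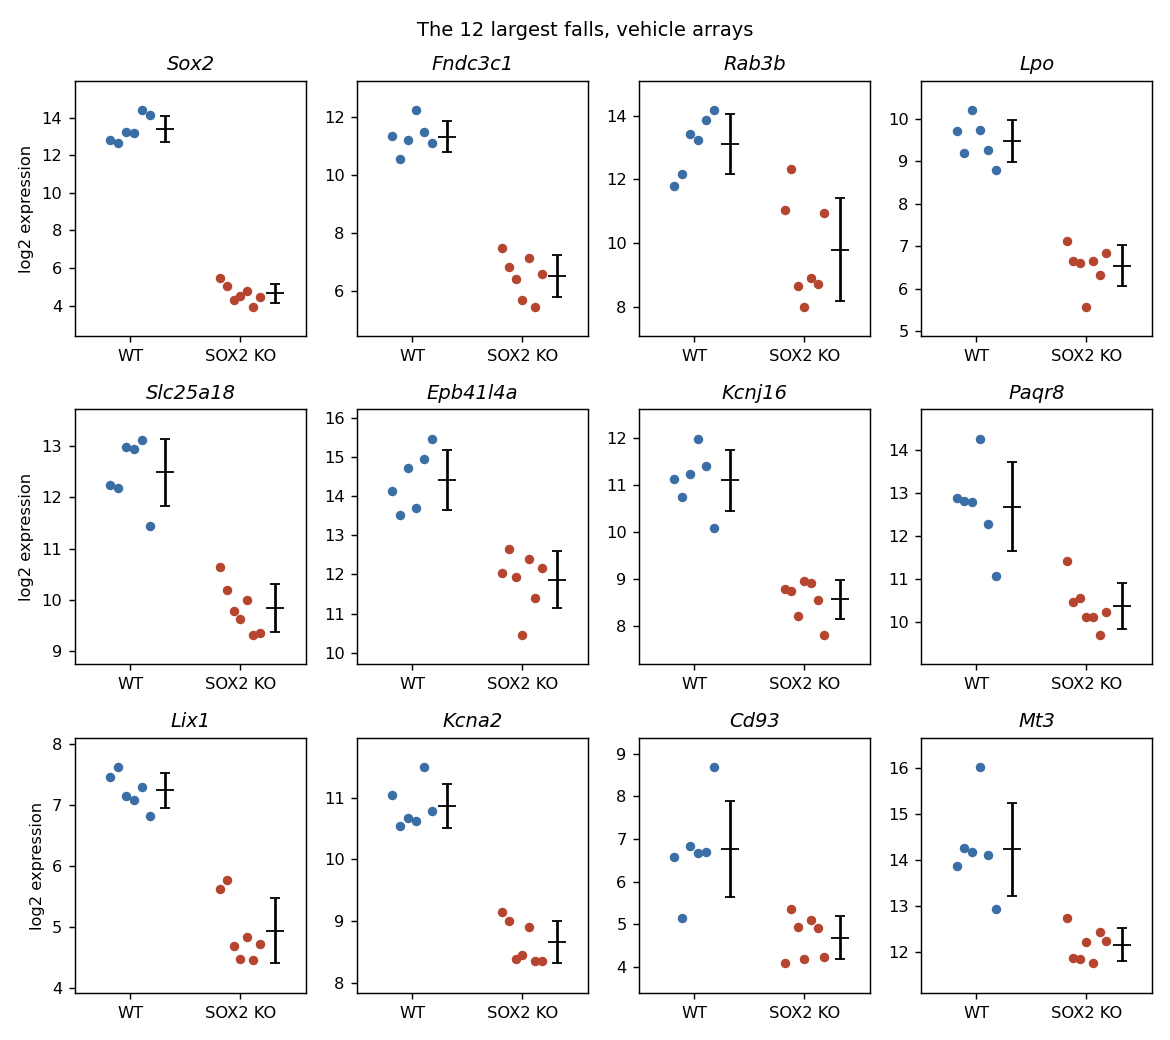
Log2 expression of the 12 genes with the largest falls, 1 point for each culture (6 WT in blue, 7 SOX2 KO in red), with the mean and SD beside the points. Every panel has its own axis, and the groups overlap in Rab3b, Paqr8 and Cd93 of the 12.

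Genes of potassium, chloride and bicarbonate transport moved in both directions. Of the 27 measured on that list, 3 fell (Kcnj16, Slc4a4 and Kcnk1), 1 rose (Clic5) and 23 did not pass, and the median was -0.20 against -0.03 over all genes. Kcnj16, which encodes the inward rectifier subunit Kir5.1, was 10.08 to 11.97 (median 11.18) in WT and 7.81 to 8.95 (median 8.75) in SOX2 KO (-2.52 ± 0.27, adjusted p = 4.18e-05, limma), and the groups did not overlap. Kcnj10, the gene of its usual partner Kir4.1 in glia, was 12.02 to 13.79 (median 13.17) in WT and 10.97 to 12.90 (median 11.97) in SOX2 KO. That difference of -1.24 ± 0.29 did not pass (adjusted p = 0.0666, limma). Slc4a4, the sodium bicarbonate cotransporter gene of astrocytes, was 11.35 to 12.50 (median 12.12) in WT and 9.06 to 11.03 (median 10.00) in SOX2 KO (means 12.07 and 10.07, SE of the difference 0.29, adjusted p = 0.00200, limma), and the difference was -2.16 to -1.83 as each culture was left out in turn. The background potassium channel gene Kcnk1 fell by 1.45 (± 0.23 SE), from a WT median of 9.41 to a SOX2 KO median of 7.85, and culture 6 was low among the WT cultures at 8.20.

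Off that list, the delayed rectifier gene Kcna2 (Kv1.2) was 10.54 to 11.49 (median 10.73) in WT and 8.36 to 9.15 (median 8.46) in SOX2 KO, with no overlap (-2.20 ± 0.21, adjusted p = 1.09e-05, limma). Kcnh5, another voltage-gated potassium channel gene, went the other way, from 5.68 to 6.80 (median 6.27) in WT to 7.33 to 8.12 (median 7.64) in SOX2 KO (1.42 ± 0.21, adjusted p = 0.00192, limma). Of 90 potassium channel subunit genes measured, a family chosen after its values were seen, 3 fell and 1 rose, with a median of -0.03. Over all genes 0.426% fell and 0.149% rose. Slc14a2, a urea transporter gene, fell by 1.62 (± 0.25 SE) without overlap.

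Clic5, which encodes a chloride intracellular channel protein tied to the actin cytoskeleton, had the largest rise of all genes. It was 5.26 to 9.06 (median 6.98) in WT and 9.11 to 12.40 (median 10.44) in SOX2 KO, a 10.7-fold difference (3.42 ± 0.50, adjusted p = 0.00192, limma). The WT range was set by culture 4 at 5.26 and culture 6 at 9.06, with the other 4 between 6.83 and 7.04, and the lowest SOX2 KO culture (9.11) was just above culture 6. Without culture 4 the difference was 3.07.

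Of 24 measured genes for handling glutamate and GABA, Slc25a18, Slc6a11 and Slc1a2 fell, none rose and 21 did not pass, with a median of -0.27. Slc25a18, which encodes a mitochondrial glutamate carrier, was 11.44 to 13.12 (median 12.60) in WT and 9.32 to 10.64 (median 9.78) in SOX2 KO, a 6.24-fold fall (-2.64 ± 0.28, adjusted p = 4.18e-05, limma). Slc1a2, the glutamate transporter GLT-1, was 11.24 to 12.86 (median 12.33) in WT and 9.26 to 11.16 (median 10.14) in SOX2 KO (-2.03 ± 0.31, adjusted p = 0.00267, limma). Slc6a11, a GABA transporter of astrocytes, was 14.36 to 15.33 (median 14.82) in WT and 12.13 to 13.42 (median 13.10) in SOX2 KO (-1.86 ± 0.23, adjusted p = 0.000262, limma). The ranges of all 3 genes were separate in the 2 genotypes.

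The astrocyte list shares 3 of its 5 falls with the lists above. Of its 28 measured genes, Slc6a11, Aldoc, Slc4a4, Slc1a2 and Acsbg1 fell, none rose and 23 did not pass. The median was -0.24, with 18 of 28 genes below 0. Aldoc, the brain form of aldolase, was 14.19 to 15.85 (median 14.82) in WT and 12.69 to 13.61 (median 13.30) in SOX2 KO (-1.71 ± 0.24, adjusted p = 0.00177, limma). Acsbg1, an acyl-CoA synthetase gene of glia, fell by 0.90 (15.03 to 15.73 (median 15.51) in WT, 14.07 to 14.93 (median 14.69) in SOX2 KO, adjusted p = 0.0298, limma), a call lost without culture 4 (adjusted p = 0.0587) and without 8 other cultures in turn. Averaged over the 28 genes the level was 10.87 to 12.15 in WT and 10.83 to 12.14 in SOX2 KO, so the list as a whole overlapped completely between the genotypes. In these RNA samples fewer cells of a type and less RNA per cell cannot be told apart.

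Several genes of metal binding, detoxification and metabolism were chosen after their values were seen and are described singly. Mt3, the only one of 4 measured metallothionein genes past the threshold, is the form best known from brain. It was 12.93 to 16.02 (median 14.14) in WT and 11.74 to 12.74 (median 12.20) in SOX2 KO (-2.08 ± 0.34, adjusted p = 0.00415, limma). The library of culture 4 labelled vehicle was highest at 16.02, and without it the difference was -1.72 (adjusted p = 0.00196). Mt1 (-0.27 ± 0.30) and Mt2 (-1.43 ± 0.42, adjusted p = 0.197, limma) did not pass. Gstt1, a theta-class glutathione transferase gene, was 6.88 to 9.55 (median 7.94) in WT and 4.98 to 6.94 (median 6.07) in SOX2 KO, overlapping slightly (-2.05 ± 0.38). Gstm7 (-1.29 ± 0.28) and Gstt3 (-1.13 ± 0.25) also passed, so 3 of 21 measured glutathione transferase genes fell and none rose, while 0.426% of all genes fell. The calls of Gstm7 and Gstt3 each held in 3 of the 13 fits that left out 1 culture, and without culture 4 their adjusted p was 0.0642 and 0.0892. With all 26 arrays in the fit, neither passed (adjusted p = 0.0705 and 0.149, limma), and with the culture as a replicate block as well, Gstt3 did not (0.102). Gstt3 was low, at 4.57 to 6.26 in WT, below the median of every array. In SOX2 KO it was 4.28 to 4.92, below the lower quartile of its own array in every culture, and it was not shown to be above background. Genes of this family are similar in sequence, and signal shared between their probes was not tested.

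Cybrd1, a ferric reductase gene, fell (13.77 to 15.28 (median 13.86) in WT, 11.63 to 13.44 (median 12.26) in SOX2 KO, -1.83 ± 0.31), and so did Trf, which encodes the iron carrier transferrin (9.07 to 10.45 (median 9.90) in WT, 7.60 to 8.96 (median 8.26) in SOX2 KO, -1.58 ± 0.27). Neither overlapped between the genotypes. Cbs, the first enzyme of transsulfuration, fell by 1.44 (± 0.27 SE, adjusted p = 0.0129, limma), Pcx, the mitochondrial pyruvate carboxylase, by 1.64 (± 0.32, adjusted p = 0.0179), and Gatm, the first enzyme of creatine synthesis, by 1.01 (± 0.20, adjusted p = 0.0209). All 3 overlapped between groups, and Pcx lost its call without culture 1 or 2 (adjusted p up to 0.0607) and Gatm without culture 3, 5, 9 or 11 (up to 0.0573) and with all 26 arrays in the fit (adjusted p = 0.0635). Acadl, a long-chain acyl-CoA dehydrogenase, fell by 0.86 with no overlap (13.25 to 13.83 (median 13.48) in WT, 12.36 to 12.87 (median 12.74) in SOX2 KO) and lost its call without culture 1 (adjusted p = 0.0528). Pipox, the sarcosine oxidase of peroxisomes, fell by 1.16, also without overlap. Its call was lost with all 26 arrays in the fit (adjusted p = 0.169, limma), with the culture as a replicate block as well (0.223) and after upper quartile centring (0.0671).

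The rises included the transcription factor genes Runx1, Zfhx4 and Cxxc5. Runx1, best known as a regulator of blood formation, was 5.64 to 8.01 (median 6.67) in WT and 8.13 to 11.01 (median 8.76) in SOX2 KO, a 5.09-fold difference (2.35 ± 0.46, adjusted p = 0.0183, limma). Cultures 10 and 12 were highest at 10.35 and 11.01, and the lowest SOX2 KO culture (8.13) lay just above the highest WT culture (8.01). The call was lost without culture 1, 2, 5 or 13, with an adjusted p of up to 0.0545. Of 6 measured Runx factors and partners, Runx1 was the only one past the threshold. No microglial marker passed among 15, including the blood-lineage gene Ptprc (-0.40 ± 0.21). Zfhx4, a zinc finger homeobox gene, was 6.40 to 7.65 (median 7.09) in WT and 8.05 to 9.13 (median 8.70) in SOX2 KO (1.61 ± 0.24, adjusted p = 0.00206, limma). Cxxc5, a CXXC zinc finger gene, rose by 1.41 without overlap.

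Svep1, a large secreted adhesion protein gene, was 6.16 to 8.05 (median 7.35) in WT and 8.80 to 9.63 (median 8.93) in SOX2 KO (1.83 ± 0.27, adjusted p = 0.00192, limma). Ecrg4, which encodes the secreted peptide precursor augurin, was 6.41 to 7.18 (median 6.76) in WT and 7.42 to 9.44 (median 8.69) in SOX2 KO (1.76 ± 0.26, adjusted p = 0.00192, limma). It stands on the choroid plexus list, of which it was the only one of 14 measured genes to pass. Averaged over that list the level was 5.80 to 6.45 in WT and 5.87 to 6.24 in SOX2 KO. Otx2, a factor gene of that tissue, was 7.85 to 9.58 (median 8.70) in WT and 8.57 to 10.71 (median 9.85) in SOX2 KO and did not pass (1.11 ± 0.34, adjusted p = 0.243, limma). The part of choroid plexus cells in the rise of Ecrg4 was not tested.

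Epha5, an ephrin receptor gene, had the smallest p of the rises, with 9.86 to 10.36 (median 10.06) in WT and 11.28 to 12.11 (median 11.58) in SOX2 KO (1.57 ± 0.18, adjusted p = 0.000110, limma). It was the only one of 13 measured Eph receptor genes past the threshold. Pde3a, which encodes a cyclic nucleotide phosphodiesterase, was 10.20 to 12.27 (median 10.60) in WT and 12.05 to 13.04 (median 12.51) in SOX2 KO (1.64 ± 0.28, adjusted p = 0.00580, limma). The overlap came from WT culture 3 at 12.27, since the other WT cultures were at most 10.99. Of 18 measured phosphodiesterase genes it alone passed, while 14 were above 0 and the median was 0.18. Ier5l was 4.26 to 5.91 (median 5.47) in WT and 6.20 to 8.36 (median 6.74) in SOX2 KO (1.63 ± 0.33) and lost its call without culture 1, 5, 12 or 13 (adjusted p up to 0.0659). Plxdc2, a transmembrane plexin-domain gene, rose by 1.33 (± 0.20 SE) and Dab2, an endocytic adaptor gene, by 1.46 (± 0.27 SE), both without overlap.

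**Figure D3:**
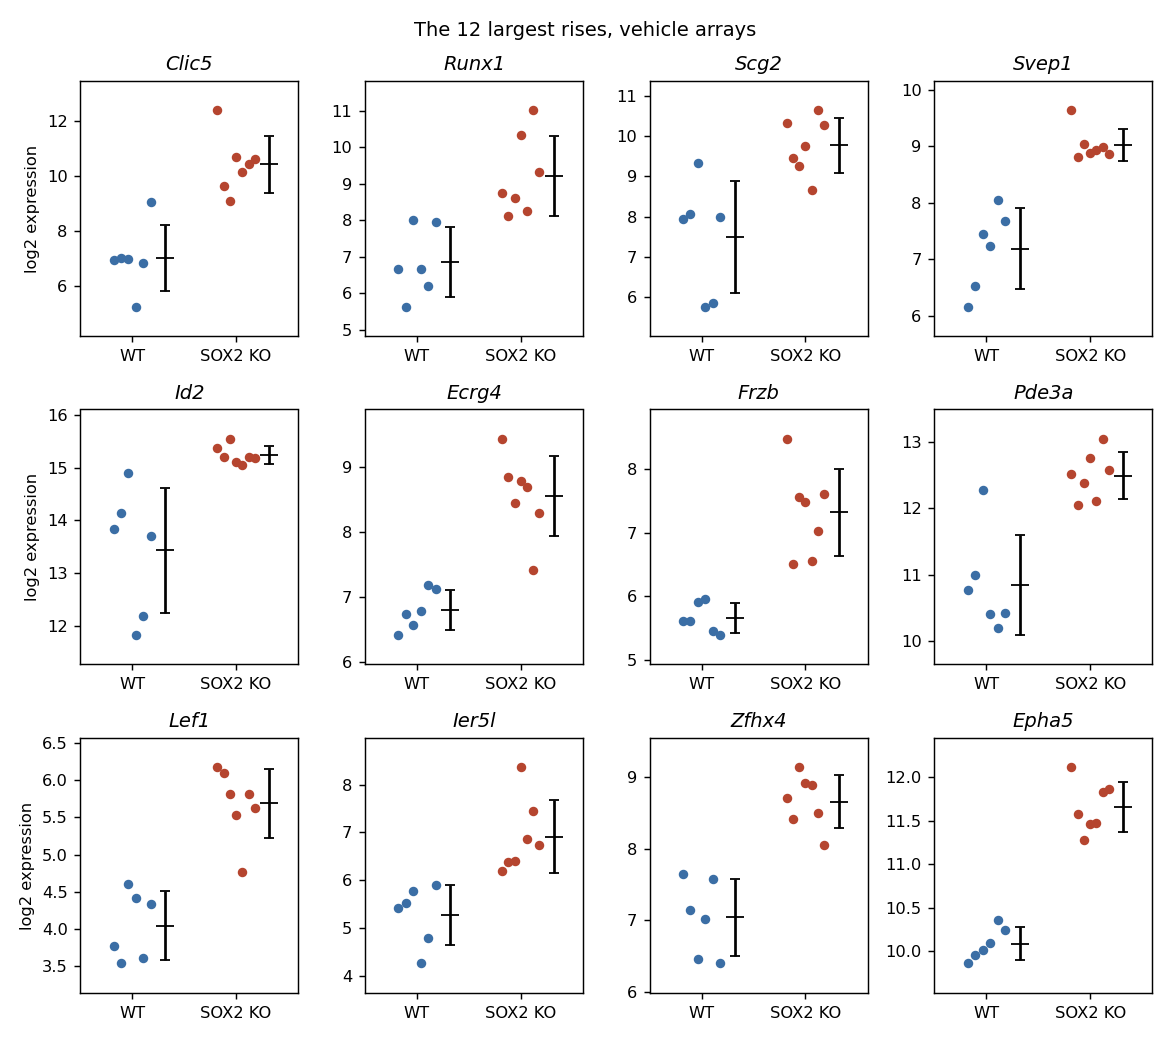
Log2 expression of the 12 genes with the largest rises, 1 point for each culture (6 WT in blue, 7 SOX2 KO in red), with the mean and SD beside the points. Every panel has its own axis. The groups overlap in Scg2 and Pde3a of the 12, and the Id2 levels of SOX2 KO span 15.06 to 15.55 where those of WT span 11.82 to 14.90.

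Of 44 measured genes of Wnt signalling, Lef1 and Fzd9 rose, Axin2 fell and 41 did not pass, and the median was -0.08. Among receptors, Fzd9, a Frizzled gene, was 8.07 to 8.65 (median 8.39) in WT and 8.89 to 10.34 (median 9.59) in SOX2 KO (1.13 ± 0.22, adjusted p = 0.0166, limma), a call lost without culture 1 (adjusted p = 0.0577). Lef1, a nuclear partner of beta-catenin, was 3.54 to 4.61 (median 4.06) in WT and 4.77 to 6.17 (median 5.81) in SOX2 KO (1.64 ± 0.24, adjusted p = 0.00206, limma). Axin2, a negative regulator and common target of the pathway, was 7.08 to 8.03 (median 7.34) in WT and 6.00 to 6.82 (median 6.56) in SOX2 KO (-1.08 ± 0.21, adjusted p = 0.0174, limma), a call lost without culture 5 (adjusted p = 0.0536) and after upper quartile centring (adjusted p = 0.175). So Lef1 and Axin2 moved in opposite directions, each without overlap between the genotypes. Lef1 was low, however: in WT it lay below the lower quartile of every array (4.82 to 5.05). In SOX2 KO it lay below the median of every array (6.46 to 6.82), and it was not shown to be above background.

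Wls, Frzb and Draxin, which are tied to the pathway and were chosen after their values were seen, rose. Wls, which carries Wnt proteins to the cell surface, was 10.61 to 12.01 (median 11.47) in WT and 12.24 to 13.10 (median 12.78) in SOX2 KO (1.38 ± 0.24, adjusted p = 0.00603, limma). Frzb, a secreted Wnt inhibitor, was 5.39 to 5.96 (median 5.61) in WT and 6.51 to 8.47 (median 7.48) in SOX2 KO (1.66 ± 0.27, adjusted p = 0.00364, limma). The Frzb call was lost with all 26 arrays in the fit (adjusted p = 0.127) and with the culture as a replicate block as well (0.117). Draxin, a secreted axon guidance protein that also inhibits Wnt signalling, rose by 1.28 (adjusted p = 0.0408, limma) without overlap, but culture 7 alone was at 8.26 against 6.27 to 6.80 in the other SOX2 KO cultures. The Draxin call was lost in 9 of 13 fits that left out 1 culture, with an adjusted p of up to 0.100, and with Y-linked transcripts as a covariate (0.0533).

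Of 37 measured genes of BMP and TGF-beta signalling, Bmp7 and Smad3 fell, Id2 rose and 34 did not pass, with a median of 0.09. The ligand gene Bmp7 was 8.69 to 10.27 (median 9.62) in WT and 7.11 to 9.09 (median 7.92) in SOX2 KO (-1.56 ± 0.31, adjusted p = 0.0183, limma), and its call was lost without culture 2, 3 or 13 (adjusted p up to 0.0567). Bmper, a secreted BMP modulator, fell by 1.05 without overlap (adjusted p = 0.0197, limma; up to 0.0590 with 1 culture left out). Smad3, a signal transducer of TGF-beta and activin, was 10.58 to 12.00 (median 11.43) in WT and 9.84 to 10.77 (median 10.25) in SOX2 KO (-1.14 ± 0.23, adjusted p = 0.0217, limma), and lost its call without culture 1, 2, 3, 9 or 11 (up to 0.0754). Tgif1, a repressor of SMAD activity, rose by 1.09 without overlap (adjusted p = 0.0492, limma) and kept its call in 1 of the 13 fits that left out 1 culture (adjusted p = 0.0648 without culture 4).

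Id2, whose product blocks bHLH transcription factors, was uniform in SOX2 KO and variable in WT, with 11.82 to 14.90 (median 13.77) in WT and 15.06 to 15.55 (median 15.20) in SOX2 KO. The rise was 1.81 ± 0.37 (adjusted p = 0.0262, limma), without overlap. It was lost without culture 5, 9 or 13 (adjusted p up to 0.0671), and without culture 4, the lowest WT culture, it was 1.49 (adjusted p = 0.0329). Id1 had a larger difference of 2.13 ± 0.57 that did not pass (adjusted p = 0.130, limma), with 8.63 to 13.94 (median 11.77) in WT and 12.81 to 14.49 (median 13.29) in SOX2 KO. Id3 (1.23 ± 0.40) and Id4 (-0.43 ± 0.26) did not pass either. Whether the 4 genes differ from each other in response was not tested.

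Among growth factor genes, Fgf1 was 7.90 to 9.20 (median 8.83) in WT and 9.80 to 10.98 (median 10.03) in SOX2 KO, a 2.96-fold difference without overlap (1.56 ± 0.25, adjusted p = 0.00364, limma). The cultures were grown with the FGF-1 protein. Of 36 measured genes of EGF and FGF signalling, Fgf1 was the only one past the threshold. Egfr, the receptor for the other growth factor in the medium, was 11.39 to 12.33 (median 11.90) in WT and 10.39 to 11.72 (median 11.03) in SOX2 KO and did not pass (-0.92 ± 0.24, adjusted p = 0.123, limma). Lrig1, which lowers the amount of EGF receptor at the surface, fell by 1.32 (12.54 to 13.49 (median 12.94) in WT, 10.82 to 11.99 (median 11.79) in SOX2 KO, adjusted p = 0.00471, limma) without overlap. Shc4, an adaptor gene of receptor tyrosine kinases, fell by 1.35 without overlap (adjusted p = 0.0221, limma) and lost its call without culture 1, 3, 10 or 11 (up to 0.0577), after upper quartile centring (0.118) or quantile normalization (0.0650), and with all 26 arrays in the fit (0.0554; 0.0632 with the culture as a replicate block).

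Genes of regulated secretion and of neuronal signalling changed in both directions. Of 27 measured secretion genes, Rab3b and Syt1 fell and Scg2 rose. Syt1, the calcium sensor of synaptic vesicles, was 7.00 to 8.64 (median 7.21) in WT and 4.93 to 7.14 (median 5.90) in SOX2 KO (-1.59 ± 0.32, adjusted p = 0.0217, limma), and its call was lost without culture 2 (adjusted p = 0.0542). Syt1 was also the only one of 27 measured neuronal markers past the threshold, and the mean of those markers was 7.15 to 7.63 in WT and 6.97 to 7.41 in SOX2 KO. Scg2, which encodes the granule protein secretogranin, was 5.75 to 9.34 (median 7.97) in WT and 8.67 to 10.65 (median 9.76) in SOX2 KO, a 4.88-fold difference (2.29 ± 0.48, adjusted p = 0.0312, limma). WT cultures 4 and 5 were lowest at 5.75 and 5.85 and culture 3 was within the SOX2 KO range at 9.34. The Scg2 call was lost without culture 1, 4, 5, 7, 10, 12 or 13, with an adjusted p of up to 0.0915, and without culture 4 it was 1.94 (adjusted p = 0.0519).

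Receptor genes in this group included Sstr2, a somatostatin receptor that fell by 1.46 without overlap (6.46 to 8.57 (median 7.22) in WT, 5.28 to 6.35 (median 5.86) in SOX2 KO, adjusted p = 0.0160, limma). Chrm3, a muscarinic receptor gene, rose by 1.19 (6.04 to 7.26 (median 6.39) in WT, 7.07 to 8.28 (median 7.77) in SOX2 KO, adjusted p = 0.0197, limma) and lost its call without culture 1, 2, 5 or 13 (up to 0.0658). The adhesion G protein-coupled receptor genes Adgrl2 (-1.58 ± 0.24), Adgrg6 (-1.31 ± 0.20) and Adgrv1 (-1.17 ± 0.24) fell, which is 3 of 23 measured, and the median of the 23 was 0.02. That family was also chosen after its values were seen, and 0.426% of all genes fell. Adgrv1 lost its call in 9 of 13 fits that left out 1 culture (adjusted p = 0.0588 without culture 4), and the other 2 kept theirs in all 13. Rtn1, whose promoter holds 3 of the SOX-type words, was 15.36 to 16.26 (median 15.91) in WT and 14.52 to 15.17 (median 14.60) in SOX2 KO (-1.14 ± 0.20). Trim9, a ubiquitin ligase gene of neurons, fell by 1.40 without overlap.

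In extracellular matrix and adhesion, Svep1 rose, Itgb5 and Lama1 fell and 37 of 40 measured genes did not pass, with a median of 0.02. Itgb5, an integrin subunit that pairs with alpha-v, was 9.47 to 10.36 (median 10.15) in WT and 6.76 to 8.94 (median 8.22) in SOX2 KO (-2.02 ± 0.30, adjusted p = 0.00206, limma). Lama1, a laminin chain of basement membranes, was 7.59 to 9.26 (median 8.21) in WT and 5.90 to 7.47 (median 6.54) in SOX2 KO (-1.61 ± 0.27, adjusted p = 0.00485, limma). Off the list, the heparan sulfate endosulfatase gene Sulf1 was 7.04 to 8.72 (median 7.94) in WT and 5.68 to 6.30 (median 5.89) in SOX2 KO (-1.90 ± 0.26, adjusted p = 0.00117, limma). Of 23 measured ADAMTS protease genes, a family chosen after its values were seen, Adamts12 rose (1.25 ± 0.26) and Adamts9 fell (-0.96 ± 0.19). Over all genes 0.574% passed. The Adamts12 call was lost without culture 1, 2, 3 or 5 (adjusted p up to 0.0823) and that of Adamts9 without culture 2 (adjusted p = 0.0527) and with all 26 arrays in the fit (0.193; 0.278 with the culture as a replicate block). Anxa5, a calcium-dependent phospholipid-binding protein gene, fell by 1.74 (10.74 to 12.69 (median 11.10) in WT, 9.00 to 10.10 (median 9.59) in SOX2 KO) without overlap.

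With all 13 arrays, no gene passed on several lists that describe neural stem cells. This held for 26 markers of neural stem and progenitor cells (median -0.09, 6 with an unadjusted p under 0.05 in limma), 25 genes linked to SOX2 in such cells (median 0.00, 6), 25 telencephalic patterning genes (median 0.00, 5), 26 Notch genes (median -0.13, 6) and 17 Hedgehog genes (median -0.17, 2). On the first of these, Tnc, a matrix gene of neurogenic niches, was 12.70 to 16.28 (median 15.41) in WT and 15.51 to 16.55 (median 16.38) in SOX2 KO (1.25 ± 0.41, adjusted p = 0.330, limma). Jag1, a Notch ligand, was 9.55 to 10.66 (median 10.25) in WT and 9.14 to 9.71 (median 9.52) in SOX2 KO (-0.73 ± 0.19, adjusted p = 0.126), and Gli2, an effector of Hedgehog signalling, 6.06 to 8.77 (median 7.29) and 5.66 to 6.76 (median 6.34) (-1.10 ± 0.32, adjusted p = 0.189). Sp8, a patterning factor gene, came close to the threshold, with 6.34 to 7.40 (median 6.79) in WT and 5.57 to 6.44 (median 5.81) in SOX2 KO (-0.89 ± 0.20, adjusted p = 0.0536, limma). Without culture 4, Sp8 (-0.99, adjusted p = 0.0293, limma) and Jag1 (-0.85, adjusted p = 0.0390) passed, both lower in SOX2 KO. Emx2, a cortical patterning factor gene, differed by -0.56 ± 0.21 (adjusted p = 0.495). A difference that missed the threshold does not show that the levels were alike.

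Proliferation genes showed small differences of mostly 1 sign and no call. Of 33 measured DNA replication genes, 30 were below 0, against 55.2% of all genes, with a median of -0.28. Of 26 mitosis genes, 22 were below 0, with a median of -0.10. The signs of differences this small depend on the scaling. Upper quartile centring shifts all genes alike, and it moved the median over all genes from -0.03 to 0.06. Replication genes averaged 10.96 to 11.27 in WT and 10.42 to 11.34 in SOX2 KO, and the genotypes overlapped. Mki67, a marker of cycling cells, was 15.48 to 16.11 (median 15.67) in WT and 14.70 to 15.84 (median 15.46) in SOX2 KO (-0.37 ± 0.21, adjusted p = 0.977, limma). Off these lists, E2f2, a factor gene of S phase entry, fell by 1.38 (8.82 to 9.86 (median 9.13) in WT, 7.27 to 8.63 (median 7.61) in SOX2 KO, adjusted p = 0.00652, limma) without overlap. Gadd45b, a stress-response gene, was the only one of 22 genes of cell cycle exit and p53 response past the threshold. It was 6.14 to 7.18 (median 6.47) in WT and 7.15 to 7.89 (median 7.51) in SOX2 KO (0.96 ± 0.20, adjusted p = 0.0262, limma), and its call was lost without culture 2, 3, 4, 5, 11, 12 or 13 (up to 0.0829), with an adjusted p of 0.0588 without culture 4.

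Of 30 immediate early genes, 25 were above 0 with a median of 0.23, and none passed. Fos was 6.92 to 8.71 (median 7.96) in WT and 7.89 to 9.78 (median 9.00) in SOX2 KO (1.00 ± 0.35, adjusted p = 0.425, limma). The list averaged 7.44 to 8.62 in WT and 8.16 to 8.83 in SOX2 KO, and the WT cultures reached lower. Of 24 glucocorticoid-induced genes, 19 were below 0, against 55.2% of all genes, with a median of -0.27, and none passed. These values include the library of culture 4 described above, whose list mean was 10.83. In the other WT cultures that mean was 9.11 to 9.70, against 9.115 to 9.68 in SOX2 KO, so the ranges nearly coincided. Fkbp5 was 13.28 to 14.39 (median 13.58) in WT, with culture 4 highest and the others at most 13.68. In SOX2 KO it was 12.39 to 13.47 (median 13.04), and the difference with culture 4 included was -0.63 ± 0.22 (adjusted p = 0.424, limma).

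Markers of other cell types gave few calls. None passed among 18 genes of the oligodendrocyte lineage (medians of the list -0.14), 15 ependymal (-0.11), 15 microglial (-0.01), 11 endothelial (0.03), 12 mural (-0.02), 16 fibroblast and meningeal (0.00) and 13 neural crest and Schwann cell genes (-0.01). Of these 7 lists, that of the oligodendrocyte lineage varied most between cultures, with a mean of 7.92 to 9.93 in WT and 7.99 to 9.91 in SOX2 KO. Mitf, a factor gene of melanocytes and pigment epithelium, came close to the threshold, with 7.07 to 8.68 (median 7.70) in WT and 8.12 to 10.29 (median 9.06) in SOX2 KO (1.51 ± 0.34, adjusted p = 0.0515, limma). The 16 genes of posterior neural identity, 12 proneural factors, 20 genes of cholesterol and fatty acid synthesis and 17 interferon response genes gave no call either. In all, 27 of the 713 measured genes on the 35 lists passed, in 14 lists, against 112 of all 19505 genes (0.574%). The lists were written with earlier results of these data known, so their larger share is not a result about them.

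**Figure D4:**
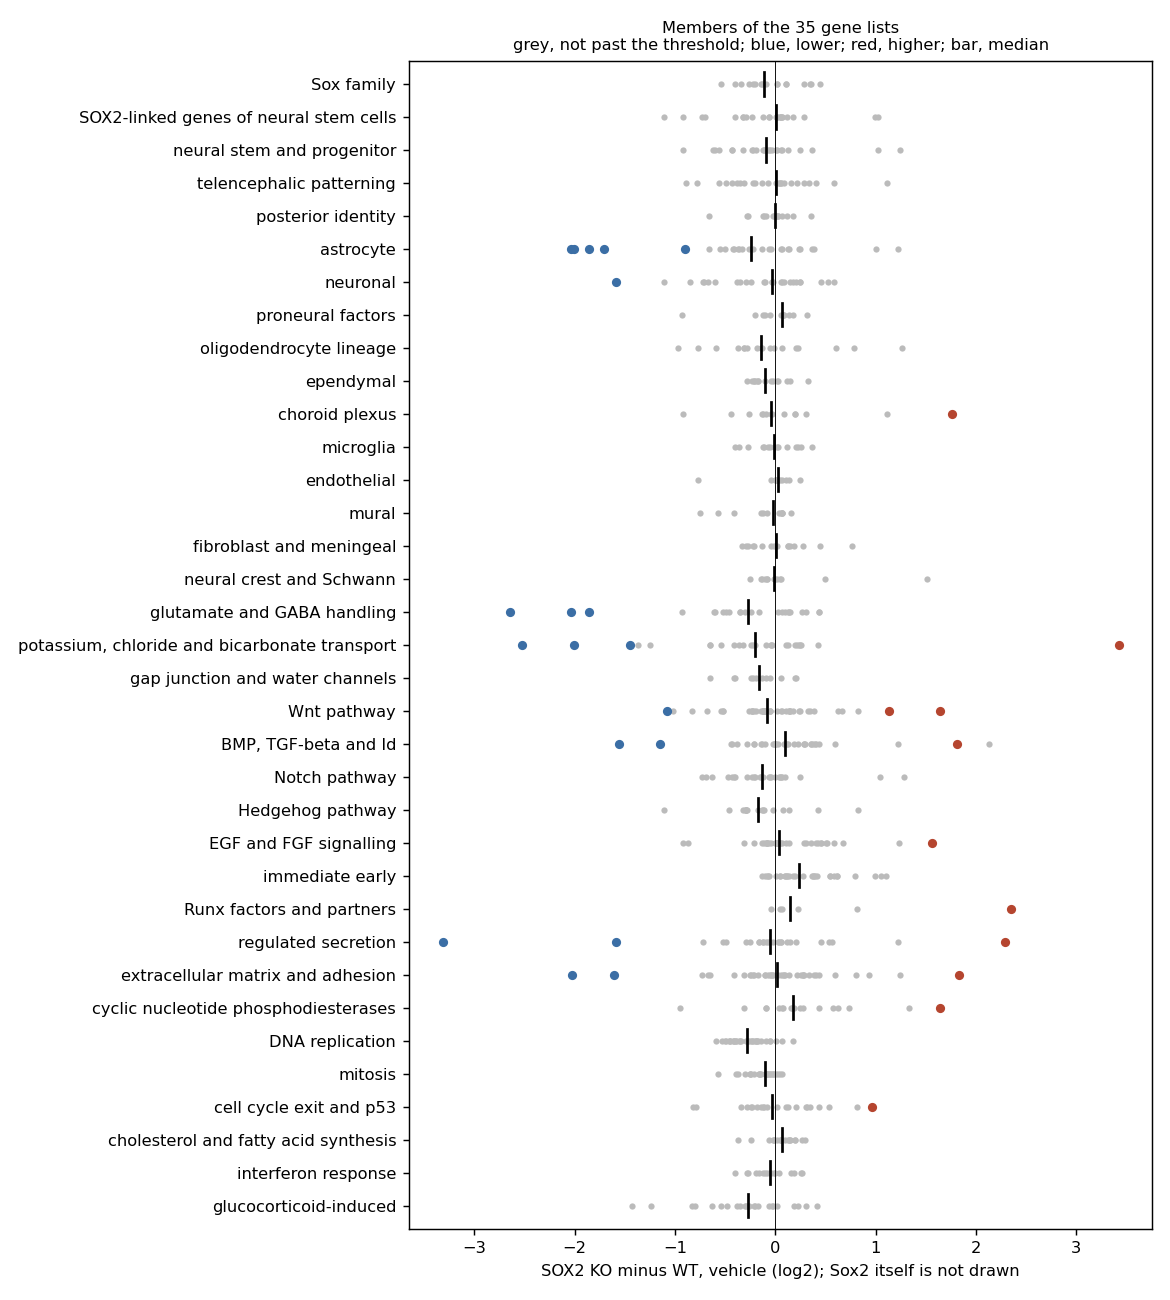
Each point is a gene of 1 of the 35 lists, placed by SOX2 KO minus WT in log2 units, in blue or red where it passed the threshold (lower or higher) and in grey where it did not, and the bar is the median of the list. Sox2 itself is not drawn. Most medians lie near 0, and the coloured points sit in 13 lists once Sox2 is left out.

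The difference was also taken within each of the 3 clusters of cultures, which were drawn after the genotype means were subtracted. The genes were called on these same arrays, so their signs within the clusters are no further support, and the sizes are given as a description. Fndc3c1 differed by -3.89, -6.64 and -4.57 in clusters 1, 2 and 3, and Kcnj16 by -2.27, -3.22 and -2.43. Rab3b differed by -0.80 in cluster 1, -4.86 in cluster 2 and -4.52 in cluster 3. Clic5 differed by 4.03, 5.32 and 2.02, and Runx1 by 1.68, 4.00 and 1.65. Cluster 2 holds culture 4 as its only WT culture. With the cluster as a covariate 418 genes passed, 202 higher and 216 lower, and all 112 were among them. The clusters were drawn from the spread within the genotypes on these same arrays, so the covariate takes up that spread by construction. The larger count and the 112 genes kept are thus no further support.

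**Figure D5:**
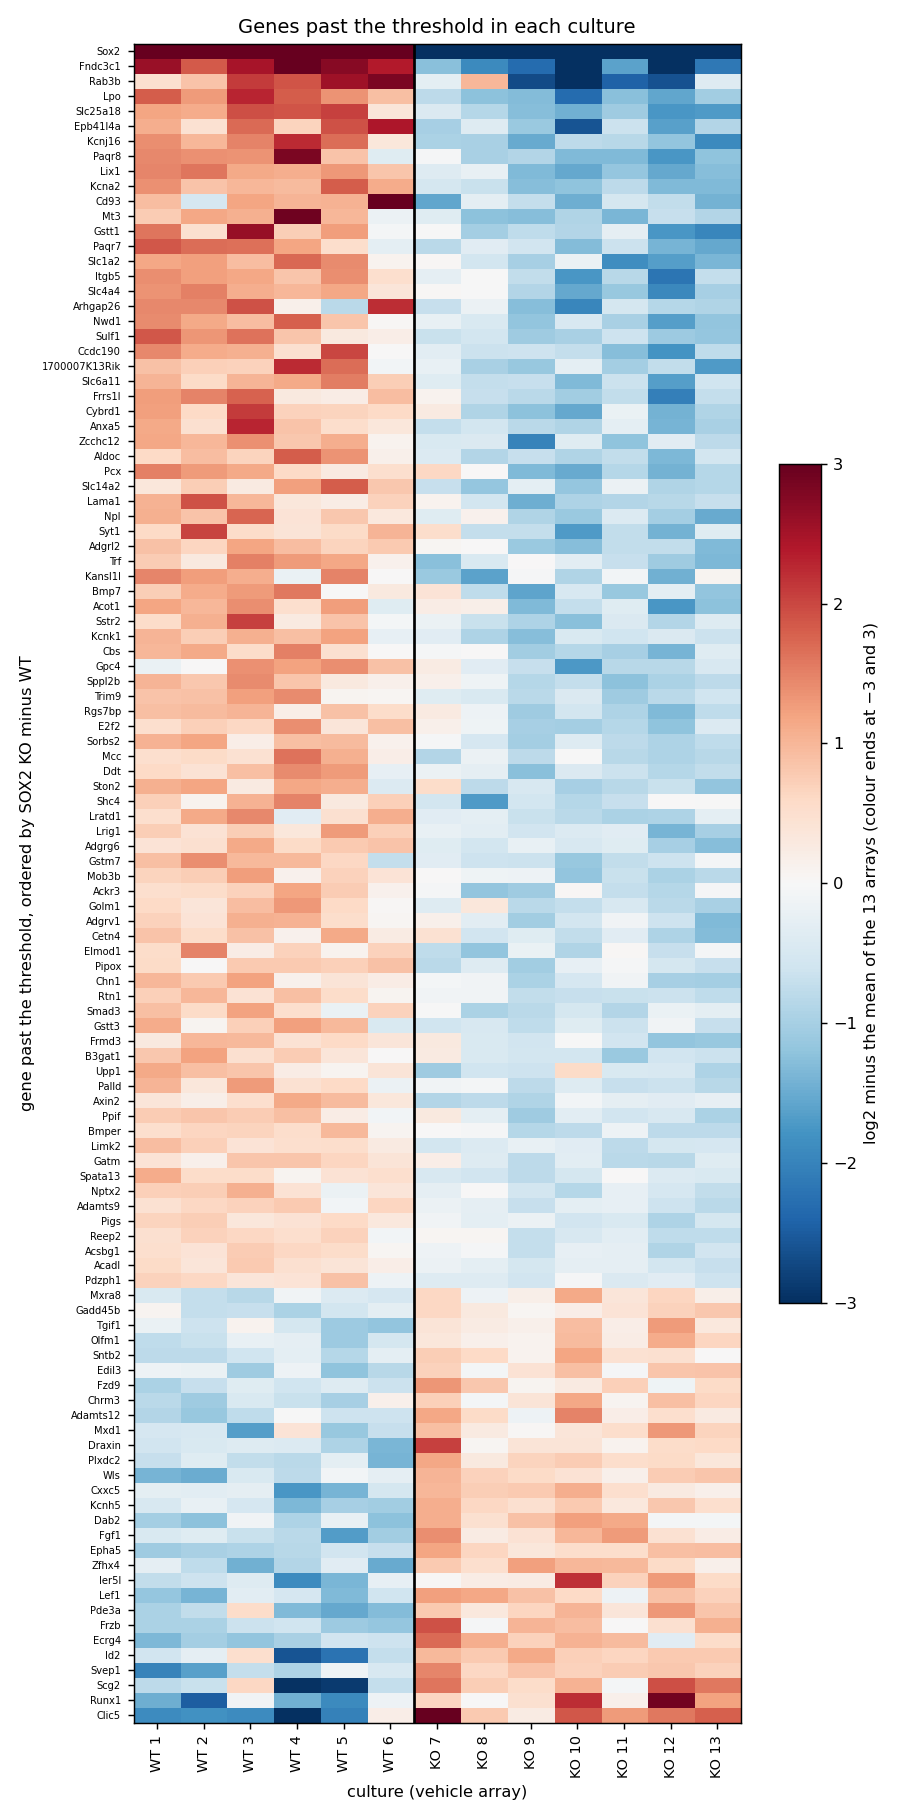
Log2 expression of the 112 genes past the threshold (rows, ordered by SOX2 KO minus WT) in the 13 cultures (columns, 6 WT left of the line and 7 SOX2 KO right of it), as the difference from the mean of the gene over the 13 arrays. The colour scale ends at −3 and 3. The 83 lower genes are red on the left and blue on the right, the 29 higher genes the reverse, and single cultures stand out within a group, such as SOX2 KO culture 8 in Rab3b.

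The same cultures were also measured after Dex, and those arrays are not independent of the vehicle arrays. Levels are therefore set side by side without a count. In the arrays labelled Dex, SOX2 KO minus WT was -8.17 for Sox2, -4.45 for Fndc3c1, -3.71 for Rab3b, -2.87 for Slc25a18 and -2.46 for Kcnj16. It was 3.77 for Clic5, 1.80 for Runx1, 1.96 for Scg2, 1.79 for Lef1 and 1.37 for Id2. For Axin2 it was -0.34 (6.85 in WT, 6.51 in SOX2 KO) and for Adamts9 -0.21 (11.39 and 11.18), smaller than the -1.08 and -0.96 in vehicle. These values include culture 4, whose arrays run opposite to their labels. Without it the difference in the arrays labelled Dex was -0.17 for Axin2 and -0.48 for Adamts9, against -0.97 and -0.91 in vehicle; for Id2 it was 1.16 and for Clic5 3.88. The interaction of genotype and Dex, fitted over all 26 arrays with the culture as a block, gave no gene past the threshold in limma (732 at an unadjusted p under 0.05), nor did it without culture 4 (24 arrays, 725 at an unadjusted p under 0.05, an alternative chosen after seeing the data), so a difference between vehicle and Dex was not shown for these genes.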

How the data were processed

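RNA from each culture was labelled with biotin and hybridised to 1 one-colour array. The deposited log2 values of the authors' series matrix were used as given. They lie between 2.22 and 19.81, and the base of the logarithm, the normalization and the background correction are not given in the sources used here. Symbols came from the platform annotation: 19572 of 22206 transcript clusters carry 1 symbol, none carries several and 2634 carry none. For the 55 genes with several transcript clusters, the one of highest mean over the 13 vehicle arrays was kept, which left 19505 genes.

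SOX2 KO minus WT was fitted to the 13 vehicle arrays with limma 3.58.1 (R 4.3.3; lmFit and eBayes), with Benjamini-Hochberg adjustment over all 19505 genes and a threshold of 0.05. Errors of differences are moderated standard errors with 11 residual degrees of freedom, and the number of arrays limits the precision. The fit was tested on simulated data. The members and the 35 gene lists (765 genes, 713 measured) were chosen with earlier results of these data known. Named genes are the 12 largest rises and 12 largest falls past the threshold, list members past it, up to 3 members of smallest p in lists with none, and 5 Sox genes. Others were chosen after their values were seen, as were the gene families. WT and SOX2 KO share no culture numbers. The numbers pair the vehicle and Dex arrays of a culture, since the labels give each animal's culture separately, and that block was used in fits of all 26 arrays. Sequences are from RefSeq's table for GRCm38.p6. The alternatives were other normalizations, filters, priors, array weights, covariates and leaving out each culture.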

Additional observations from a re-analysis of the deposited data

Results flagged for a closer look

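In 16 of 342 groups tested (171 genes in 2 genotypes), 1 culture lay far from the others of its genotype in the vehicle arrays. This is 4.68%, and chance gives about 1 in 20 for a single group. Many of the 171 genes were chosen after their values were seen, so the rate cannot be set against chance. Of the 16, 4 were in culture 7 and 3 in culture 4. In culture 4 these were Fam107a (12.51, the others 5.04 to 5.58), Fkbp5 (14.39, the others 13.28 to 13.68) and Mt1 (19.57, the others 17.82 to 18.35), all known glucocorticoid-induced genes. All 3 were among the genes chosen after their values were seen, so their kind is no separate result.

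In SOX2 KO culture 7, Draxin was 8.26 (the others 6.27 to 6.80), Svep1 9.63 (8.80 to 9.03), Ston2, an endocytic adaptor gene, 9.08 (7.34 to 8.04) and Tnc 15.51 (16.23 to 16.55). Ston2 passed (-1.35 ± 0.30, adjusted p = 0.0413, limma), but not without culture 4 (adjusted p = 0.0784). WT culture 6 was low in Kcnk1 at 8.20 (9.19 to 9.66) and in Gstm7 at 8.51 (9.84 to 10.62). In the other cases Adamts9 was 10.09 in WT culture 5, Pipox 9.32 and Mobp 5.97 in WT culture 2, Sox1 10.38 and Hoxa5 4.36 in WT culture 3, Fam107a 4.45 in SOX2 KO culture 11 and Hydin 5.48 in SOX2 KO culture 12. Outside the genes with a symbol, 8 of 2634 transcript clusters without one passed the threshold in limma, 1 higher and 7 lower in SOX2 KO, a signal that the comparison by gene does not use.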

How the results depend on the processing

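The 112 calls (29 higher, 83 lower, 25.9% higher) became 194 after quantile normalization (73 higher, 121 lower), 315 with array weights (67 and 248) and 418 with the array cluster as a covariate (202 and 216). The clusters came from these same arrays, so the last count is partly built in. Quantile normalization and upper quartile centring (160 calls, 64 and 96) moved the higher share to 37.6% and 40.0%, and the covariate to 48.3%. Leaving out 1 culture gave 75 to 150 calls, the fewest without culture 1 and the most without culture 6. The fit of all 26 arrays gave 109 calls, and 136 with the culture as a replicate block. Sox2 passed in every alternative and stayed between -8.90 and -8.56 when 1 culture was left out. Of the 112 genes, 60 passed under all 25 alternatives, and Lef1 passed in the 24 that tested it, since it was among the low genes left out. A minimum fold change of 1.5 was 1 of the 25 and could not change a call, since the smallest difference past the threshold was 1.81-fold. No named gene past the threshold changed sign, and 61 of 100 named genes past the threshold kept their call whichever culture was left out. For the 71 named genes that did not pass, an alternative gave a call in 58 cases. Of these cases 11 were with the array cluster as a covariate, 9 with array weights and 6 after quantile normalization. So a miss of the threshold also depends on the processing. Sex could enter only through Y-linked transcripts, which gave 134 calls as a covariate, with 101 of the 112 among them. In WT the cultures high in Y-linked transcripts (1, 2 and 3) were also the WT cultures of cluster 1. The 2 cannot be told apart in WT. The scale of the values and their normalization limit every fold given, and 7 against 6 arrays limit small differences.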

Other observations

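Several genes past the threshold are neighbours with no tested gene between them. Ddt, a tautomerase gene, and the transferase genes Gstt3 and Gstt1 lie side by side on chromosome 10 and differed by -1.36, -1.13 and -2.05. Kansl1l and Acadl on chromosome 1 differed by -1.58 and -0.86, and Aldoc and Pigs on chromosome 11 by -1.71 and -0.96. Arhgap26 and Fgf1 are neighbours on chromosome 18 and moved in opposite directions, by -1.97 and 1.56. The calls of Kansl1l, Gstt3 and Arhgap26 were each lost in at least 7 of 13 fits that left out 1 culture. Ddt lost its call with all 26 arrays in the fit (adjusted p = 0.0968, limma) and with the culture as a replicate block as well (0.0586). Kansl1l and Gstt3 also lost theirs after upper quartile centring (0.0693 and 0.129) and with Y-linked transcripts as a covariate (0.0532 and 0.0598). These pairs were noticed after the calls were made.

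By chromosome, 0 of 1822 tested genes on chromosome 7 passed (limma), against 7 of 440 on chromosome 18 (1.59%), 7 of 587 on chromosome 12 (1.19%) and 0.574% of all genes. This comparison between chromosomes was not tested.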
